A study of Bos taurus with 6 samples.

Results

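Histone and protein methyltransferases and demethylases were examined in granulosa cells of dairy cows given folic acid and vitamin B12, or saline, around and after calving. Members were the probes whose gene symbol in the platform annotation begins with PRMT, SETD, KMT, KDM, SMYD, MLL or SUV, or is one of a fixed set of further symbols such as EZH2, EED, EHMT2, NSD1 and CARM1. The rule found 100 of the 43794 gene probes on the array, which stand for 57 of 15229 named genes. Of these, 71 probes of 47 genes were bright enough to be tested, and 38 of the 47 genes were above the negative controls in all 12 readings (6 arrays, 2 channels each). The rule looked at names only, so it also took genes that do not methylate anything themselves. EED, WDR5 and ASH2L are non-catalytic subunits of methyltransferase complexes, and 5 MLLT genes are named for their fusions with MLL in human leukaemia. In the annotation used here, no probe carried the symbol DOT1L, WHSC1 or PRDM2 or a symbol beginning with KMT.

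Histone methyltransferases move a methyl group from S-adenosylmethionine to lysines or arginines of histones and of other proteins, and demethylases take it off again. Marks on H3K4 and H3K36 are known from active genes, and those on H3K9 and H3K27 from silent ones. S-adenosylmethionine is made from methionine, whose resynthesis uses a methyl group carried by folate and a synthase that depends on vitamin B12, so these enzymes draw on the supply that both vitamins serve. Granulosa cells surround the oocyte in the ovarian follicle and make estradiol. The roles given below are those described in human and mouse cells.

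The vitamin group received folic acid (320 mg) with vitamin B12 (10 mg) by intramuscular injection, and the control group received physiological saline (0.9%). Treatment of both groups began 3 weeks ahead of calving and ended on day 57 ± 2 postpartum. On day 57 ± 3, or on day 71 ± 3 where no preovulatory follicle was found, follicles 12 mm or wider were emptied by ovum pick-up through the vagina 66 ± 2 h past the last of a pair of prostaglandin F2 alpha injections. Granulosa cells were then picked out under a stereomicroscope. Each of 6 two-colour arrays set RNA of vitamin-treated cows against RNA of saline-treated cows, and the design gives 3 biological replicates, each on 2 dye-swapped arrays. The breed, age and parity of the cows, and whether a replicate was 1 cow or a pool, are unknown here.

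The saline RNA of replicate 1 stood apart from the other 5 RNAs in its summed granulosa and leukocyte marker intensities. Epithelial, theca and stroma sums also varied among the other RNAs. Aromatase (CYP19A1), which makes estradiol, had log2 intensities of 10.99, 15.70 and 14.75 in the vitamin RNAs of replicates 1, 2 and 3, against 7.40, 13.57 and 13.84 in the saline RNAs. The summed intensity of 11 of 12 granulosa markers was 204000, 228000 and 243000 in vitamin RNAs, against 42700, 190000 and 170000 in saline RNAs, and the marker FOXL2 was too dim to be tested. These sums hide that vitamin RNA 1 also differed from the RNAs of replicates 2 and 3. It was below all of them for CYP19A1, FSHR, AMH, NR5A2, HSD17B1, FST and GJA1. For INHA, INHBA, GATA4 and CDH2 it was above all of them. The summed intensity of 20 of 29 leukocyte markers was 6320, 8310 and 6160 in vitamin RNAs, against 86300, 3360 and 6320 in saline RNAs. A further 7 leukocyte markers, CD14, CSF1R, CD79A and ITGAM among them, were on the array but too dim to be tested. The summed intensity of 7 of 10 epithelial markers was 52400, 61200 and 2430 in vitamin RNAs, against 68100, 1500 and 1980 in saline RNAs (CDH1, CLDN3 and MUC1 were too dim to be tested). KRT8, the brightest of the 7, weighed most in these sums. Its log2 intensities were 15.59, 15.63 and 9.58 in vitamin RNAs, against 15.78, 8.76 and 9.67 in saline RNAs. In vitamin RNA 1, KRT18 was at 10.85, EPCAM at 7.13 and KRT19 at 9.28, against 11.37, 11.71 and 11.93 in vitamin RNA 2. Theca and stroma markers (10 of 12 tested) summed to 25700, 14300 and 5950 in vitamin RNAs, against 34800, 6350 and 21300 in saline RNAs. Endothelial markers (3 of 8 tested, PECAM1, CDH5, VWF and KDR too dim) stayed between 675 and 863 in all RNAs, and erythrocyte markers (4 of 6 tested) between 789 and 1480. Replicate 1 was also alone on its slide. Ratios are therefore given by replicate, and with replicate 1 left out where a result could rest on it. In RNA of a mixed cell sample, fewer cells of a type and less RNA per cell cannot be told apart.

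No member passed the test of vitamins over saline. Across 26713 probes, limma's test called 0 at an adjusted p under 0.05 (percent called 0.0 in either direction), and the adjusted p of the 47 member genes lay between 0.979 and 1.0. At an unadjusted p under 0.05, on the brightest probe of each gene, EZH2 and SUV39H2 were lower, which is 2 of 47 members, and 0 were higher, against 3.28% and 2.88% of 10954 named genes. The median log2 ratio of the 47 genes was 0.05, next to 0.01 over all named genes. Means were below 0 in 21 members and above 0 in 26, while 48.9% of all named genes were below 0 and 51.1% above. Mean ratios of the members ran from -0.99 to 0.43, and 3 members exceeded 0.5 in size, 6.38% of them against 14.6% of all named genes. In 33 of the 47 (70.2%) the SD over replicates was larger than the mean ratio, which held for 78.1% of all named genes.

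**Figure D1:**
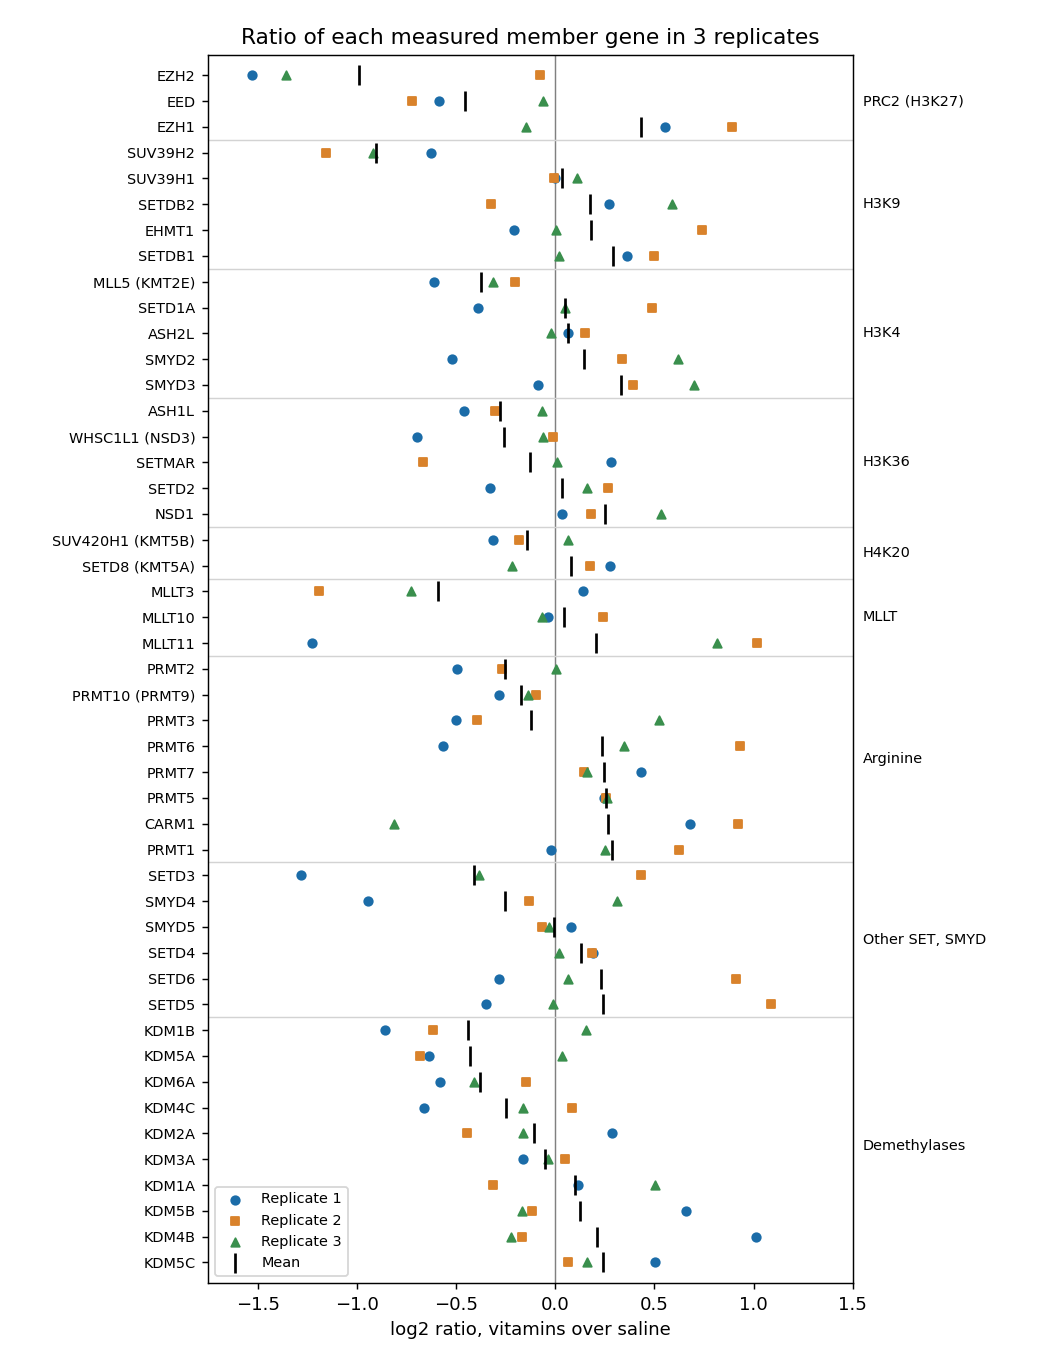
The log2 ratio of vitamins over saline (x axis) is drawn for the 47 measured member genes (rows, by role, current symbol in brackets where it differs), with a point for each of the 3 replicates and a black bar for their mean. EZH2 and SUV39H2 have the lowest means, -0.99 and -0.90, and most genes have replicates on both sides of 0.

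By replicate, 8 members were below 0 in all 3, or 17.0%, where 12.4% of all named genes were. Another 6 members were above 0 in all 3, or 12.8%, where the share of all named genes was 12.7%. On replicates 2 and 3 alone, 13 members were below 0 in both (27.7%, against 25.7% of named genes) and 15 above 0 in both (31.9%, against 29.7%). In those replicates both vitamin values lay below both saline values in 8 members (17.0%, against 14.5%) and above both in 10 (21.3%, against 20.5%). The members' shares were close to the background in each count. On the brightest probe of each gene, the 8 below 0 in every replicate were EZH2, EED, ASH1L, WHSC1L1, MLL5, SUV39H2, PRMT10 and KDM6A. The 6 above it were SETDB1, NSD1, PRMT5, PRMT7, SETD4 and KDM5C. These were chosen by their signs, so no test is attached to either set.

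The PRC2 complex places the H3K27 mark with EZH2 or EZH1 as its enzyme and EED as the subunit that reads the mark. EZH2 had log2 intensities of 9.83, 11.31 and 10.58 in vitamin RNAs of replicates 1, 2 and 3, against 11.36, 11.39 and 11.94 in saline RNAs. Every vitamin value was below every saline value, though replicate 2 was nearly level. Its log2 ratio was -0.99 ± 0.79 (SD, n = 3; adjusted p = 1.0 by limma), a 1.98-fold lower mean level, and it was below 0 on 6 of 6 arrays. Groups that do not overlap in this direction were found for 2 of 47 members, EZH2 and MLL5, and for 3.41% of all named genes. The ratio of EZH2 was -0.72 without replicate 1 and -1.44 without replicate 2. Its other probe was above the negative controls in only 2 of 12 readings and was not tested.

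EED had values of 11.84, 11.79 and 12.51 in vitamin RNAs, against 12.42, 12.51 and 12.57 in saline RNAs. Vitamin RNA 3 lay among the saline values, and the log2 ratio was -0.45 ± 0.35 (SD, n = 3), with 5 of 6 arrays below 0. EZH1, the enzyme of PRC2 in cells that seldom divide, had 8.24, 8.44 and 7.81 in vitamin RNAs, against 7.68, 7.55 and 7.95 in saline RNAs. Its ratios of 0.56, 0.89 and -0.15 gave a mean of 0.43 ± 0.53 (SD, n = 3), the highest among the members, and its other tested probe gave 0.03. EZH2 and EZH1 therefore had opposite signs in replicates 1 and 2 and the same sign in replicate 3.

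EZH2 is known to be expressed in dividing cells, and cell cycle genes were low in the same arrays. All 31 measured genes of a 33-gene cell cycle list had a mean below 0, against 48.9% of all named genes. Of the 31, 24 were below 0 in every replicate, against 12.4% of all named genes. With limma, 0 were called at an adjusted p under 0.05 and 20 were lower at an unadjusted p under 0.05, against 3.28% of all named genes. Medians of that list were -1.52, -0.53 and -1.25 in replicates 1, 2 and 3, beside EZH2 ratios of -1.53, -0.08 and -1.36. Leukocyte markers had medians of -2.59, 0.87 and -0.10. The part of cell division or of leukocytes in the EZH2 values was not tested.

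**Figure D2:**
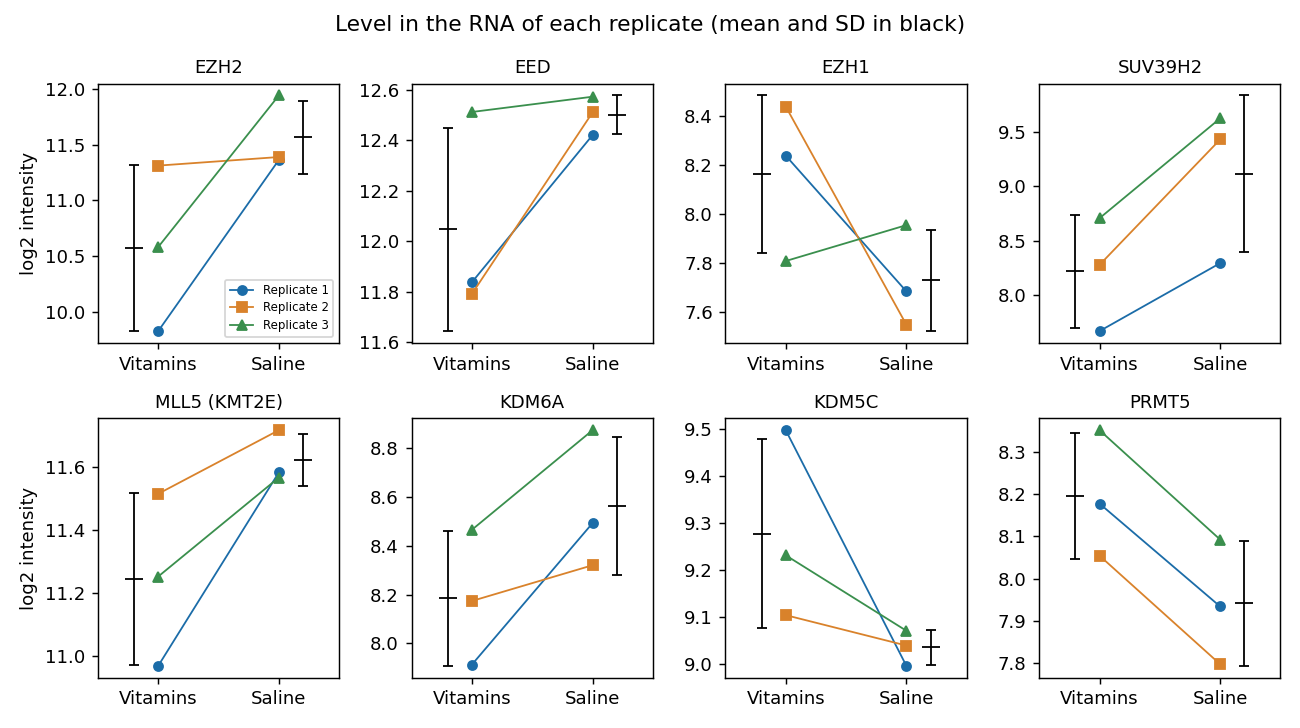
Log2 intensity (y axis, own range per panel) of 8 member genes in the vitamin and saline RNAs of each replicate, joined by a line, with mean and SD in black (n = 3). EZH2 and MLL5 have all vitamin points below all saline points, KDM5C has them above, and the other 5 genes overlap between groups.

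Among the H3K9 methyltransferases, SUV39H2 had the lowest unadjusted p of all members. It had 7.67, 8.28 and 8.71 in vitamin RNAs, against 8.29, 9.43 and 9.63 in saline RNAs. The vitamin value was the lower one within each replicate, but the groups overlapped, since saline RNA 1 lay below vitamin RNA 3. The log2 ratio was -0.90 ± 0.27 (SD, n = 3; adjusted p = 0.979 by limma), with -0.63, -1.16 and -0.92 in the replicates and 6 of 6 arrays below 0. It was -1.04 without replicate 1. Its dimmer probe, above the negative controls in 7 of 12 readings, gave -0.05, so the mean over both probes was -0.48.

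SUV39H1, the paralogue that marks pericentric heterochromatin alongside SUV39H2, differed by less than its spread. It had 8.36, 8.50 and 8.40 in vitamin RNAs, against 8.36, 8.51 and 8.29 in saline RNAs, with a log2 ratio of 0.03 ± 0.06 (SD, n = 3). SETDB1, which silences retroelements together with the co-repressor TRIM28, had 9.93, 10.47 and 9.87 in vitamin RNAs, against 9.57, 9.97 and 9.85 in saline RNAs. Its replicate ratios of 0.36, 0.50 and 0.02 were all above 0, and 5 of 6 arrays were. SETDB2 (0.18 ± 0.46) and EHMT1 (0.18 ± 0.50), an enzyme of H3K9 dimethylation, had ratios on both sides of 0 (SD, n = 3 each). EHMT2, the partner of EHMT1, was above the negative controls in 4 of 6 vitamin readings and in 0 of 6 saline readings, and so was not tested. Its measured values were 6.95, 7.44 and 7.61 in vitamin RNAs, against 7.16, 7.0 and 6.96 in saline RNAs, so the vitamin RNA was the lower one in replicate 1.

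H3K4 methyltransferases and their subunits were the least measurable role: 5 of 10 genes were tested. MLL5, now KMT2E, carries a SET domain but is known as a reader of H3K4 methylation. Its brightest probe had 10.97, 11.51 and 11.25 in vitamin RNAs, against 11.58, 11.72 and 11.57 in saline RNAs. The groups did not overlap, and the log2 ratio was -0.38 ± 0.21 (SD, n = 3; adjusted p = 1.0 by limma), below 0 on 6 of 6 arrays. Its 3 probes disagreed, with means of -0.69 on a probe detected in 4 of 6 vitamin readings, -0.38 on this one and 0.05 on the third. SMYD3, a lysine methyltransferase of histones and cytoplasmic kinases, had 8.99, 9.26 and 9.14 in vitamin RNAs, against 9.08, 8.87 and 8.45 in saline RNAs. Its ratios were -0.09, 0.39 and 0.70.

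SMYD2, which methylates the tumour suppressor p53, had ratios of -0.52, 0.33 and 0.62, with the same order of signs as SMYD3. SETD1A, a catalytic subunit of the complexes that mark active promoters, had a mean of 0.05 ± 0.44, and the shared subunit ASH2L 0.07 ± 0.09 (SD, n = 3 each). The other core subunit, WDR5, was above the negative controls in 5 of 12 readings. SETD1B, SETD7, PRDM9, the meiotic enzyme that places recombination, and SMYD1, an enzyme of muscle, were detected in at most 5 of 12 readings. SETD1B was detected in none.

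All 5 genes of H3K36 methylation were measured. ASH1L, an H3K36 dimethyltransferase, had 11.20, 12.17 and 12.33 in vitamin RNAs, against 11.66, 12.48 and 12.40 in saline RNAs. Each replicate was below 0 (-0.46, -0.31 and -0.07), and its other tested probe had a mean of -0.55, next to -0.28 for this one. NSD1, an enzyme of the same mark, had 7.89, 8.35 and 8.13 in vitamin RNAs, against 7.86, 8.17 and 7.60 in saline RNAs, a log2 ratio of 0.25 ± 0.26 (SD, n = 3). Its paralogue WHSC1L1, now NSD3, was at -0.26 ± 0.38 (SD, n = 3) on its brightest probe. That mean rested on replicate 1, with ratios of -0.70, -0.01 and -0.06. The other tested probe of WHSC1L1 had ratios of -0.84, -0.52 and 0.42. SETD2, the enzyme of H3K36 trimethylation that travels with RNA polymerase II, was dim (9 of 12 readings) and had a mean of 0.03. The 4 probes of SETMAR, a methyltransferase domain fused to a transposase in primates, ran from -0.31 to 0.29.

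Both genes of H4K20 methylation had means near 0. SUV420H1, now KMT5B, had 10.91, 11.57 and 11.59 in vitamin RNAs, against 11.23, 11.75 and 11.52 in saline RNAs, with a mean of -0.14 ± 0.19 (SD, n = 3) and 3 probes between -0.40 and 0.04. SETD8, now KMT5A, which places the single methyl group on H4K20 that is known to peak in mitosis, had 7.78, 7.99 and 7.60 in vitamin RNAs, against 7.50, 7.81 and 7.82 in saline RNAs. Its ratio was 0.08 ± 0.26 (SD, n = 3), in arrays where the cell cycle list had a median of -1.20. The groups overlapped for both genes.

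Of the 5 MLLT genes, 3 were measured. MLLT3, a YEATS-domain protein that brings DOT1L and elongation factors to acetylated chromatin, had 8.54, 8.62 and 8.60 in vitamin RNAs, against 8.40, 9.81 and 9.33 in saline RNAs. The 3 vitamin values lay close together and the saline values did not, so that the ratios were 0.14, -1.19 and -0.72. Its mean was -0.59 ± 0.67 (SD, n = 3), and -0.96 without replicate 1. Dimmer tested probes of MLLT3 had means of -0.47 and -0.05. MLLT11 had 13.13, 13.54 and 13.46 in vitamin RNAs, against 14.36, 12.52 and 12.65 in saline RNAs. On this brightest probe the saline RNA of replicate 1 was the highest of all and the other 2 saline RNAs the lowest. The mean of 0.20 ± 1.24 (SD, n = 3) became 0.92 without replicate 1. The other tested probe lacked this pattern, with 8.09, 7.97 and 8.16 in saline RNAs, ratios of -0.24, 0.58 and -0.25 and a mean of 0.03. The saline RNA of replicate 1 was also the one with a summed leukocyte marker intensity of 86300. The part of those cells in the MLLT11 values was not tested. MLLT10, a DOT1L cofactor, was at 0.04 ± 0.17 (SD, n = 3), and MLLT1 and MLLT6 were too dim to be tested.

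Of 9 protein arginine methyltransferases, 8 were measured, 5 with a mean above 0 and 3 below. PRMT5, the main enzyme of symmetric arginine dimethylation, had 8.18, 8.05 and 8.35 in vitamin RNAs, against 7.93, 7.80 and 8.09 in saline RNAs. The difference was small and even, with ratios of 0.24, 0.26 and 0.26 (mean 0.25 ± 0.01, SD, n = 3; adjusted p = 1.0 by limma). PRMT5 was the single member above 0 on 6 of 6 arrays, where 5.02% of all named genes were. The groups overlapped, as the RNAs differed between replicates by more than between treatments.

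PRMT1, which makes most asymmetric dimethylarginine, had 7.68, 8.29 and 7.98 in vitamin RNAs, against 7.71, 7.67 and 7.73 in saline RNAs. The ratio was near 0 in replicate 1 and 0.62 and 0.25 in the others, and its 2 probes had means of 0.28 and 0.29. The dimmer probe was detected in 5 of 6 vitamin readings and 2 of 6 saline readings. It passed the filter mainly through the vitamin RNAs, so its mean is a description of a dim probe. PRMT7, an arginine monomethyltransferase, had 10.26, 9.98 and 9.74 in vitamin RNAs, against 9.82, 9.83 and 9.57 in saline RNAs. Its ratios were above 0 in each replicate, but only on 4 of 6 arrays.

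CARM1, a co-activator of nuclear receptors that methylates H3 arginines, had 11.97, 10.69 and 9.96 in vitamin RNAs, against 11.29, 9.77 and 10.77 in saline RNAs. Replicates 1 and 2 were at 0.68 and 0.92 and replicate 3 at -0.81, which left a mean of 0.26 ± 0.94 (SD, n = 3). PRMT2 had 7.12, 7.51 and 7.12 in vitamin RNAs, against 7.62, 7.78 and 7.11 in saline RNAs, and was detected in 7 of 12 readings. The 3 probes of PRMT10, now PRMT9, had means between -0.19 and -0.14 and so gave nearly the same value. PRMT3 (-0.12 ± 0.56), an enzyme of a ribosomal protein, and PRMT6 (0.24 ± 0.75), which methylates H3 arginine, had replicates on both sides of 0 (SD, n = 3 each). PRMT8, an enzyme of the brain, was detected in 0 of 12 readings.

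Other SET and SMYD enzymes act mostly on proteins outside chromatin. SETD3, the histidine methyltransferase of actin, had 10.67, 12.17 and 11.61 in vitamin RNAs, against 11.95, 11.74 and 11.99 in saline RNAs. Vitamin RNA 1 was the low value, and the mean of -0.41 ± 0.86 (SD, n = 3) became 0.02 without replicate 1. A dimmer tested probe of SETD3 had ratios of -0.10, -0.11 and -0.14. SETD4 had 8.24, 8.49 and 8.35 in vitamin RNAs, against 8.05, 8.31 and 8.33 in saline RNAs, a ratio of 0.13 ± 0.10 (SD, n = 3). SETD5 and SETD6, a methyltransferase of the NF-kappaB subunit RELA, followed replicate 2, with ratios there of 1.09 and 0.91 and smaller ones elsewhere. SMYD4 and SMYD5 had means of -0.25 and -0.01, and SMYD5 was dim (7 of 12 readings).

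Of 11 demethylases, 10 were measured, 6 with a mean below 0 and 4 above. KDM6A, an X-linked H3K27 demethylase, had 7.91, 8.17 and 8.47 in vitamin RNAs, against 8.49, 8.32 and 8.88 in saline RNAs. Its ratios of -0.58, -0.15 and -0.41 gave -0.38 ± 0.22 (SD, n = 3; adjusted p = 1.0 by limma), below 0 on 6 of 6 arrays although the groups overlapped. With EZH2, SUV39H2 and MLL5 it made up the 4 members below 0 on all arrays, 8.51% of the 47 against 5.2% of all named genes. EZH2 places H3K27 methylation and KDM6A takes it off, and both had means below 0.

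Of the H3K4 demethylases, KDM5A was low in 2 replicates and KDM5C slightly high in 3. KDM5A had 9.18, 8.24 and 8.51 in vitamin RNAs, against 9.81, 8.92 and 8.48 in saline RNAs. KDM5C, the X-linked enzyme, had 9.50, 9.10 and 9.23 in vitamin RNAs, against 9.0, 9.04 and 9.07 in saline RNAs. It was the single member with every vitamin value above every saline value, which 2.99% of all named genes showed. Its log2 ratio of 0.24 ± 0.23 (SD, n = 3) came from one dye orientation, at -0.06 with Cy5-labelled vitamin RNA and at 0.55 with Cy3-labelled vitamin RNA. KDM5B had 3 probes between 0.06 and 0.32, and its brightest had ratios of 0.66, -0.12 and -0.17.

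The flavin-dependent demethylases differed from each other in detection. KDM1A, the H3K4 demethylase of the CoREST complex, had 9.86, 9.04 and 9.16 in vitamin RNAs, against 9.74, 9.35 and 8.66 in saline RNAs, with ratios on both sides of 0 (0.10 ± 0.41, SD, n = 3). KDM1B, known for resetting imprints in mouse oocytes, had 7.35, 7.12 and 7.40 in vitamin RNAs, against 8.20, 7.73 and 7.24 in saline RNAs. It was detected in 2 of 6 vitamin readings and 5 of 6 saline readings, and passed the filter mainly through the saline RNAs, so its ratio of -0.44 ± 0.53 (SD, n = 3) is a description of a dim probe.

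The remaining JmjC demethylases had ratios of mixed sign. KDM4B, an H3K9 demethylase, was at 1.01 in replicate 1 and at -0.16 and -0.22 in the others on its brightest probe, while its second probe had a mean of 0.50 and was above 0 in each replicate. KDM4C, its paralogue, was at -0.25 ± 0.38, the H3K36 demethylase KDM2A at -0.11 ± 0.37 and KDM3A, which is induced by hypoxia, at -0.05 ± 0.11 (SD, n = 3 each). KDM2B was detected in 1 of 12 readings.

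**Figure D3:**
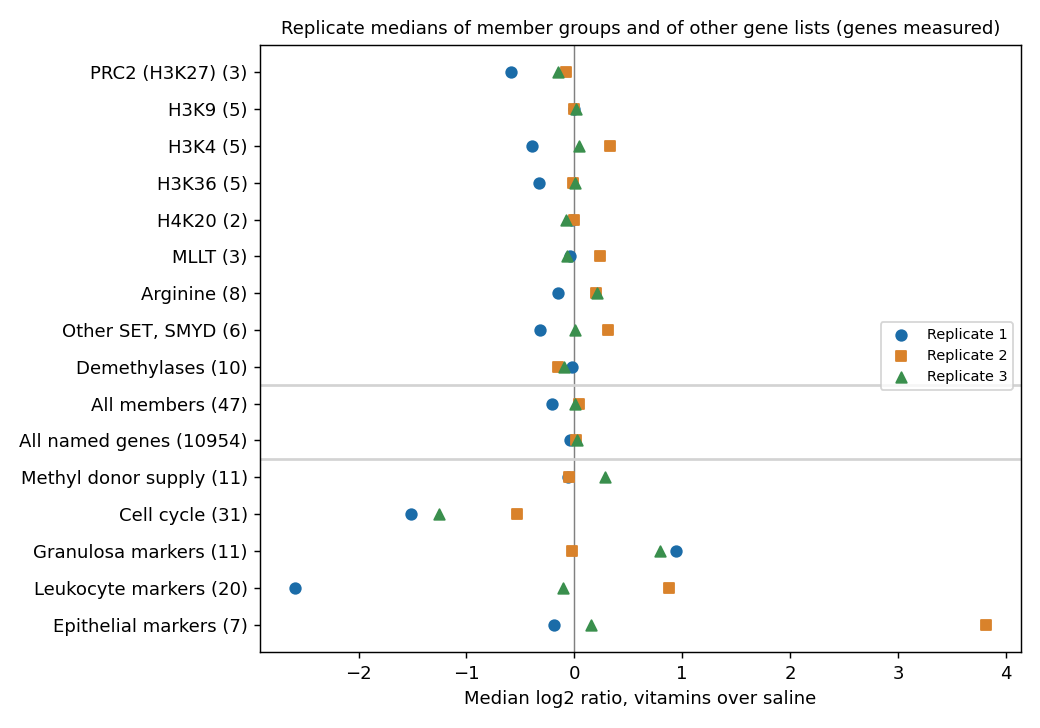
Median log2 ratio of vitamins over saline (x axis) in each of the 3 replicates for the roles of members, all members, all named genes and 5 other gene lists (rows, genes measured in brackets). Medians of the members stay between -0.58 and 0.33, whereas those of the leukocyte and epithelial markers reach -2.59 and 3.82 in single replicates.

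By role, the medians were -0.45 for the 3 PRC2 genes, -0.13 for H3K36, -0.08 for demethylases, -0.03 for H4K20, 0.05 for the MLLT genes, 0.06 for other SET and SMYD enzymes, 0.07 for H3K4, 0.18 for H3K9 and 0.24 for arginine methyltransferases. Over all members the median was -0.21 in replicate 1, 0.05 in replicate 2 and 0.01 in replicate 3, beside -0.04, 0.01 and 0.02 for all named genes.

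In 6 lists of partners, cofactors and methyl donor enzymes limma called 0 genes at an adjusted p under 0.05. At an unadjusted p under 0.05, PAXIP1 was lower, and PCGF2 and AHCYL1 were higher. Of all named genes, 3.28% were lower and 2.88% higher at that threshold. A mean below 0 was found for 48.9% of them, with 12.4% below and 12.7% above 0 in every replicate. Of 17 measured PRC2 partners and PRC1 genes, 7 had a mean below 0 and 3 were below 0 in every replicate, while 4 were above 0 in every replicate. The lowest unadjusted p belonged to PCGF2 (0.51 ± 0.21) and PHC2 (0.45 ± 0.26, SD, n = 3 each), both subunits of PRC1. SUZ12, another core subunit of PRC2, was at -0.41 ± 0.45 (SD, n = 3). It was chosen after its value was seen. Among 10 partners of the H3K4 enzymes, PAXIP1 of the KMT2C and KMT2D complexes was at -0.72 ± 0.37 and PSIP1, a chromatin tether of MLL, at -0.53 ± 0.74 (SD, n = 3 each). Of 10 H3K9 readers and co-repressors, 7 had a mean below 0, with UHRF1 at -0.76 ± 0.66 and MPHOSPH8 at -0.66 ± 0.58 (SD, n = 3 each).

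Among 6 demethylases and cofactors outside the rule, 4 had a mean below 0. The same 4, JMJD1C, PHF2, JARID2 and HDAC2, were below 0 in every replicate, against 12.4% of all named genes. JARID2 (mean -0.09) and HDAC2 (mean -0.26) are not demethylases, and JARID2 was also counted among the PRC2 partners. JMJD1C was at -0.52 ± 0.46 and PHF2 at -0.28 ± 0.15 (SD, n = 3 each). In a list set up around H4K20 methylation and DOT1L (5 genes measured), YEATS4 was at -0.55 ± 0.39 and ELL at 0.45 ± 1.34 (SD, n = 3 each). The ELL ratio rested on replicate 1, with 2.00 there and -0.39 and -0.25 in the others. The list set up around the methyl donor had a median of -0.12 over 11 measured genes, 6 below 0 and 5 above. Not all of them make or recycle the donor. The list also holds the hydrolase relatives AHCYL1 and AHCYL2, and the methyltransferases GNMT, PEMT and GAMT, which use the donor. Of these, GNMT alone had a mean below 0. AHCYL1, a relative of the hydrolase that clears S-adenosylhomocysteine, was at 0.84 ± 0.30 and PEMT, which methylates phospholipids, at 0.35 ± 0.26 (SD, n = 3 each).

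**Figure D4:**
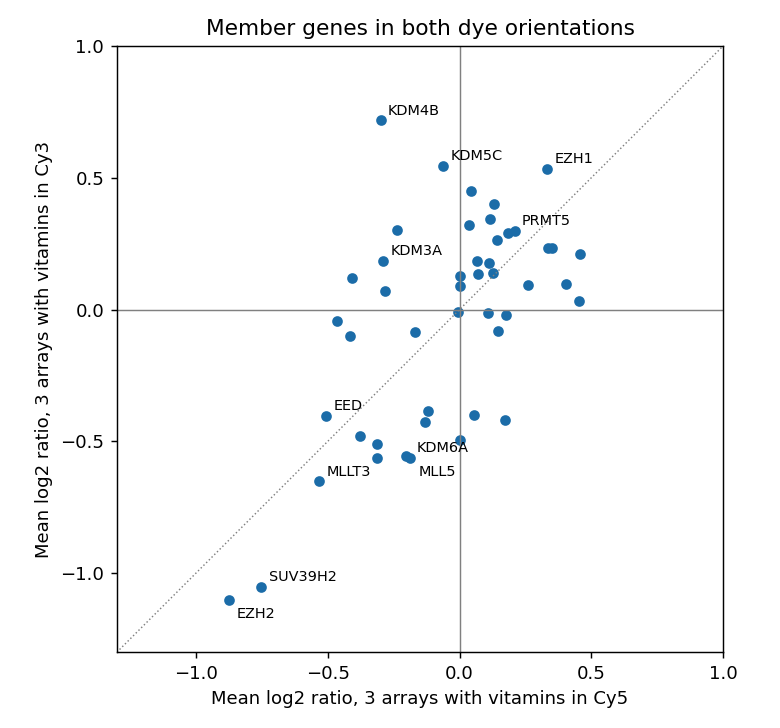
Mean log2 ratio of vitamins over saline of the 47 member genes on the 3 arrays with vitamins in Cy5 (x axis) and the 3 with vitamins in Cy3 (y axis), with equal values on the dotted line. EZH2 and SUV39H2 are low in both, and KDM4B lies at -0.30 in one and 0.72 in the other.

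In both dye orientations 35 of 47 members had the same sign, 74.5% of them, against 62.6% of all named genes. EZH2 was at -0.87 with Cy5-labelled vitamin RNA and at -1.10 with Cy3-labelled vitamin RNA, and SUV39H2 was at -0.75 and -1.05 in the same order. The medians over the 47 members were 0.00 with vitamins in Cy5 and 0.09 with vitamins in Cy3.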

How the data were processed

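Per the labels' protocols, total RNA came from the PicoPure kit, went through 2 rounds of RiboAmp HSPlus amplification and was coupled to Cy3 or Cy5 by ULS. Such amplification can distort ratios, alike on both arrays of a pair. For both channels, the deposited arrays hold a median spot intensity and a median local background intensity, per the file headers. No source used here names the scanner. A series table of log2 ratios that the authors deposited served only as an alternative. Its columns correlated with the ratios computed here at r = 0.861 to 0.962, all as vitamins over saline, with medians from -0.018 to 0.015. Its normalization is unknown.

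R 4.3.3 and limma 3.58.1 were used. Intensities were corrected with normexp (offset 50) and normalized by loess within arrays, with control spots at weight 0. Ignored spots (2 to 71 per array) were left out. A reading was detected above the mean plus 2 SD of 153 negative controls, and probes detected in at least 6 of 12 readings were tested (53.1% to 68.7% of gene probes were detected per channel). Log2 intensities of single RNAs follow loess and Aquantile scaling and are means of both arrays of a pair. The level of one probe is not comparable with that of another.

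The labels do not name the dye-swap pairs, so they were taken as the matching with the highest summed correlation after centring within each orientation (arrays 1 and 2, 3 and 4, 5 and 6: summed r 2.46, next best 0.731). Two-sided tests of the 3 pair means against 0 used lmFit and eBayes. Benjamini-Hochberg adjustment ran across all tested probes, with calls at 0.05. The limma step was tested on simulated replicate ratios with known shifts, each larger than the mean ratio of any member. That simulation cannot say how often shifts of the members' size would be called. Nothing says that replicates are separate cows, so p-values measure only the spread between these samples, and precision is limited by how few arrays there are.

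The brightest tested probe stands for a gene. Of the 57 member symbols 52 are current in RefSeq's gene table and 5 were updated through a synonym. In the platform annotation 21790 probes have 1 symbol and 22004 none. No genome or sequence was used. Levels are given for the 2 genes of lowest unadjusted p in each role (4 for arginine methyltransferases and demethylases) and, where measured, for EZH1, EZH2, EED, SETDB1, SUV39H1, SUV39H2, SETD8, PRMT1, PRMT5, CARM1 and KDM1A. Of each list of partners, the 2 genes of lowest unadjusted p are named. CYP19A1, SUZ12, KRT8, KRT18, KRT19 and EPCAM were singled out after their values were seen. Members and lists were chosen with earlier results of these data known. Alternatives covered background correction, normalization, filter, variance trend, slide, dye pairs, probe choice, left-out replicates and the deposited table.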

Additional observations from a re-analysis of the deposited data

Results flagged for a closer look

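KDM3A was the 1 member of 47 with its ratio on one side of 0 on all arrays of one dye orientation and on the other side on all arrays of the other. It had a mean log2 ratio of -0.29 with Cy5-labelled vitamin RNA and of 0.19 with Cy3-labelled vitamin RNA (below 0 on each of the 3 Cy5 arrays and above 0 on each of the 3 Cy3 arrays). limma's test of its difference between orientations gave an adjusted p of 0.154, which did not pass. On the brightest probe of KDM4B, the mean was -0.30 with Cy5-labelled and 0.72 with Cy3-labelled vitamin RNA. The fitted dye term was -0.51 (adjusted p = 0.00633 by limma). Among the brightest probes of the 47 members it alone passed, where 6.57% of all tested probes, dimmer ones included, did. The dimmer tested probe of WHSC1L1 passed as well, at 0.14 with Cy5-labelled and -0.77 with Cy3-labelled vitamin RNA (adjusted p = 0.016 by limma).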

How the results depend on the processing

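No probe was called at an adjusted p under 0.05 under any alternative that allowed a test, and of 26 genes whose levels were given 17 kept their direction throughout. Part of this was fixed in advance. Another filter, variance trend or array matching, a dye term, or independent groups could not move the mean of a gene still tested. Leaving out replicate 1 and using only the slide of replicates 2 and 3 are the same fit. EZH2 ranged from -1.53 to -0.72 and SUV39H2 from -1.04 to -0.48, with lowest adjusted p of 0.317 and 0.271. Within the slide of replicate 1 (1 replicate, no test) MLLT11 was at -1.23, MLLT3 at 0.14, PRMT1 at -0.023, SMYD3 at -0.087 and SUV39H1 at -0.0023. There 29 members were below 0 and 18 above, the median of all members was -0.21, and role medians were -0.33 (H3K36), -0.39 (H3K4), -0.0023 (H3K9), -0.15 (arginine) and -0.31 (other SET and SMYD). Within the slide of replicates 2 and 3, SETD3 was at 0.024 and SETD8 at -0.022, 13 members were below 0 and 15 above in both, and the medians were 0.13 (H3K9) and -0.17 (demethylases). With the slide as a block, MLLT11 and the MLLT median were at -0.15 and the H3K9 median at 0.082. Leaving out each replicate in turn gave -0.065 to 0.80 for CARM1, -0.099 to 0.31 for KDM1A, -0.20 to 0.92 for MLLT11, -0.83 to 0.024 for SETD3, -0.022 to 0.23 for SETD8 and -0.0048 to 0.053 for SUV39H1. It gave 13 to 15 members below 0 and 9 to 15 above in both remaining replicates (fewer replicates had to share a sign), and medians of -0.20 to 0.086 (MLLT), -0.0048 to 0.13 (H3K9), -0.027 to 0.22 (arginine) and -0.17 to -0.020 (demethylases). With probes detected in all readings the medians were -0.19 (MLLT), 0.11 (H3K9) and -0.14 (H4K20). With median centring they were 0.13 (H3K9), -0.086 (H4K20) and -0.19 (demethylases). The H3K9 median was 0.15 without background correction, 0.20 with an offset of 16 and 0.041 in the authors' deposited table, where SUV39H1 was at -0.098. Beyond the number of genes, replicates or arrays used, the cause was not tested. The test was itself paired, since each array holds vitamin and saline RNA, and treating both RNAs as independent groups also gave 0 calls. Signal limits the dim members: 10 genes were not tested, and PRMT2, KDM1B and SMYD5 were detected in 7 of 12 readings.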

Other observations

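Over the 3 replicates the members took every combination of signs. The most frequent was below 0 in replicate 1 and above it in replicates 2 and 3, with 9 members (19.1%, against 17.0% of all named genes). Of the 16 members with several tested probes, MLL5, SETMAR and SUV420H1 had probes with means of opposite sign, and SUV39H2 had the widest span, 0.85 on the log2 scale.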
